A study of Homo sapiens with 18 samples.

Results

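The cadherins and protocadherins were the 103 genes, of 62754 in the gene count matrix, whose symbol was CDH followed by a number or began with PCDH. They comprised 5 type I (classical) cadherins, 13 type II cadherins, 5 other cadherins and 13 non-clustered protocadherins. The clusters gave 16 genes of PCDHA, 16 of PCDHB and 22 of PCDHG, and 6 more with pseudogene symbols. PCDHA14, counted among the 16 of PCDHA, is also annotated as a pseudogene. The 7 further PCDH symbols were mostly antisense or divergent transcripts. The cells were EA.hy926, an endothelial line made by fusing human umbilical vein endothelial cells with the lung epithelial line A549. They received the transfection reagent alone (Mock), a non-targeting siRNA (siNT) or an siRNA pool against ELMO1 (siELMO1), an adaptor protein of engulfment and Rac activation, with each siRNA at 10 nM. RNA was taken without poly(I:C), a synthetic RNA that mimics viral infection (0 h), or after 24 h of poly(I:C) at 1 µg/ml, which was begun 48 h after transfection. Each of the 6 conditions had 3 libraries, all from this one hybrid line, described as biological replicates.

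Cadherins are calcium-dependent adhesion proteins that join a cell to its neighbour by binding the same protein across the contact. Classical cadherins hold β-catenin and p120-catenin at their cytoplasmic tails and so link the junction to actin; in endothelium the type II cadherin CDH5 (VE-cadherin) builds the adherens junction, beside the type I cadherin CDH2 (N-cadherin). Protocadherins share the extracellular repeats but not the catenin-binding tail. The clustered ones lie in tandem on chromosome 5 and are best known from neurons, where each cell uses a small selection of their promoters. In PCDHA and PCDHG every variable exon has its own promoter and is spliced to exons that the whole cluster shares, whereas PCDHB genes have no shared exons.

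Most promoters of the clustered genes carry a conserved element that contains CGCT and is bound by CTCF. RefSeq promoters (GRCh38.p14) were at hand for 13 PCDHA, 14 PCDHB and 20 PCDHG genes. Within the 250 bases upstream of the start, the most shared 9-base word on the coding strand was GGTGGCGCT in PCDHB, in 12 of 14 windows, at positions -84 to -16. The same word stood on either strand in 0.41% of all 35116 RefSeq windows of that length. The stretches of the 9 tested PCDHB genes that held it are shown because the tested genes, with or without it, moved together below. All are on the plus strand, with the word in capitals.
PCDHB2, chr5:141094545-141094573: agagacgcggGGTGGCGCTgcagccttag
PCDHB3, chr5:141100394-141100422: gcgaacgcatGGTGGCGCTgttgactaag
PCDHB5, chr5:141135180-141135205: taggacgcctGGTGGCGCTgcaggct
PCDHB7, chr5:141172567-141172595: caaaacgcaaGGTGGCGCTgctggctaaa
PCDHB16, chr5:141182311-141182339: gagaacgcgtGGTGGCGCTgcaggttaag
PCDHB9, chr5:141187075-141187103: gaagccacaaGGTGGCGCTgcagactgaa
PCDHB10, chr5:141192300-141192328: gaggccacacGGTGGCGCTgcaggctaaa
PCDHB13, chr5:141213866-141213894: gaggacgcgtGGTGGCGCTgcaggataag
PCDHB14, chr5:141223264-141223292: ggagacacatGGTGGCGCTacaggataag
PCDHB1 and PCDHB8 did not hold the word in that window. PCDHB8, without it, had the largest log2 rise of the tested PCDHB genes over siNT at 0 h (2.27). PCDHB13, with it, had the smallest (1.03, or 0.59 without siELMO1 0 h replicate 1). PCDHB8 was abundant enough to be tested only through its siELMO1 libraries. A relation between the word and the response was not tested.

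In PCDHG the most shared word was GCGCCGCTG, in 10 of 20 windows and in 0.968% of all windows on either strand. It overlaps the same CGCT core, which by itself was in 64.8% of all windows. Of the PCDHG genes described below, PCDHGA11 and PCDHGA1 held it and PCDHGC3, PCDHGB2 and PCDHGC4 did not.
PCDHGA11, chr5:141420974-141421002: tgggctctagGCGCCGCTGctcaccaatc
PCDHGA1, chr5:141330405-141330433: aggactgtggGCGCCGCTGttcactaatc
In PCDHA the word was GATGTCGCT, in 9 of 13 windows and 0.0854% of all windows. A match describes the letters and is no evidence of binding. Promoters of CDH5, CDH24, CDH13 and PCDH10 were not in the table.

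Library totals ran from 40.4e6 to 73.9e6 estimated counts, and 3 counts, the limit taken for a count of 0, were worth 0.0384 to 0.0753 CPM, the count scaled to the normalised library total (counts per 1e6). ELMO1 was at 2.66 to 3.32 CPM in the 6 Mock and siNT libraries at 0 h and at 0.299 to 0.419 in the 3 siELMO1 libraries. At 24 h it was at 1.52 to 3.59 and 0.155 to 0.36 CPM. The library siELMO1 0 h replicate 1 stood apart from its own group: its differences from replicates 2 and 3 came to 60.4 and 67.1 times sampling noise (chi-square per degree of freedom), against 9.41 to 25.4 for all other pairs. Of the endothelial markers PECAM1, VWF, KDR, TEK, TIE1 and ERG were present and CLDN5 never passed 0.21 CPM. Among the epithelial markers the keratins KRT7, KRT8 and KRT18 reached 1190, 487 and 600 CPM. EPCAM, CLDN4 and KRT19 reached at most 1.24, 1.47 and 0.434 CPM, and the epithelial cadherin CDH1 had no count in any library. The 8 endothelial markers, CDH5 among them, summed to 958 to 1095 CPM in the Mock and siNT libraries at 0 h and to 1557 to 1659 in siELMO1, and to 930 to 1234 and 1593 to 1922 CPM at 24 h. The 7 epithelial markers summed to 1519 to 1914 and 2103 to 2227 CPM at 0 h and to 844 to 1058 and 1100 to 1316 CPM at 24 h. The 5 mesenchymal markers summed to 6.26 to 11.7 CPM in Mock and siNT and 19.4 to 20.8 in siELMO1 at 0 h, and to 11.3 to 23.2 and 30.6 to 33.1 CPM at 24 h, mostly from ACTA2, with PDGFRA never above 0.105 CPM. The part of these in the results below was not tested, and in bulk RNA more cells of a kind cannot be told from more RNA per cell.

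Of the 103 genes, 36 had at least 100 counts in all and 1 CPM in at least 1 library and were tested. They were CDH2 of the type I cadherins, CDH5, CDH7, CDH12, CDH18 and CDH24 of type II, CDH13, PCDH1, PCDH9, PCDH10, PCDH12, PCDH15 and PCDH18, 10 PCDHB genes, 11 PCDHG genes and the transcripts PCDH10-DT and PCDHB1-AS1. No PCDHA gene was tested. Of the 67 others, 36 exceeded 0.1 CPM somewhere, 15 had counts but stayed at or below 0.1 CPM and 16 had no count, among them CDH1, CDH11, CDH16, CDH17, CDH19, PCDH8, PCDH11X, PCDH20 and PCDHB1; no level is given for the Y-linked PCDH11Y. The untested cadherins above 0.1 CPM were CDH15 (at most 0.822), CDH4 (0.637), CDH26 (0.48), CDH9 (0.273), CDH10 (0.226), CDH23 (0.218), CDH20 (0.126), CDH8 (0.115) and CDH22 (0.109). PCDH19 reached 0.243. The clustered ones above that limit were PCDHA4 (0.959), PCDHGA2 (0.904), PCDHA7 (0.84), PCDHB15 (0.731), PCDHGB4 (0.539), PCDHB6 (0.502), PCDHGA5 (0.502), PCDHGC5 (0.497), PCDHGA8 (0.413), PCDHGA3 (0.375), PCDHGA9 (0.336), PCDHB4 (0.327), PCDHGB1 (0.319), PCDHB12 (0.3), PCDHGA12 (0.3), PCDHB11 (0.288), PCDHGB8P (0.28), both PCDHB18P entries (0.268 and 0.212), PCDHGB6 (0.232), PCDHA10 (0.151), PCDHA1 (0.14), PCDHA9 (0.14), PCDHAC1 (0.126), PCDHGB5 (0.125) and PCDHA3 (0.12).

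The 36 tested genes were spread over several orders of abundance. In TPM, the transcript abundance per length scaled to the library (per 1e6), CDH5 averaged 343 and CDH2 141 over the 18 libraries, followed by PCDH1 at 44.3, PCDH10 at 26.5, PCDHGC3 at 24.1 and PCDHB2 at 11.3. All others were below 9 TPM: CDH18 8.85, CDH12 8.35, CDH24 7.64, CDH13 7.48, PCDH12 6.89, PCDH9 4.32 and PCDH15 2.16 TPM. PCDH10 and PCDHGC3 were close, and their order depended on the condition: at 0 h PCDH10 was the higher in Mock (34.2 against 11.9 TPM) and at 24 h PCDHGC3 was the higher in siELMO1 (40.9 against 22.4 TPM).

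The first question was which of these genes differed after ELMO1 knockdown. At 0 h, before poly(I:C), most of them were higher in siELMO1 than in siNT: 26 of 36 were called higher and 2 lower at an adjusted p under 0.05 (edgeR quasi-likelihood test, Benjamini-Hochberg over 15167 genes), where 31.3% of all tested genes were called higher and 31.3% lower. The median log2 fold change of the 36 was 1.51, against 0.00 over all genes. With a fold change over 2 also required, 21 of 36 were called, against 14.6% of all genes. Against Mock at 0 h 21 were called higher and none lower, with 27.9% of all genes called higher and 22.4% lower, a median log2 fold change of 0.84 against 0.04 over all genes, and 13 of 36 past a fold of 2 against 7.79%. Without siELMO1 0 h replicate 1 the calls were 25 higher and 3 lower against siNT and 20 higher and 0 lower against Mock. Against Mock 1 member, CDH18, was called lower without Mock replicate 2 or siELMO1 replicate 3. These counts hold 7 genes, 4 PCDHB and 3 PCDHG, that passed the abundance filter only through their siELMO1 libraries, where they were high; the counts are given as an account of the members and not as support.

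At 24 h of poly(I:C) the direction was less one-sided. Against siNT, 18 of 36 were called higher and 3 lower (26.0% and 26.5% of all genes), and against Mock 17 were higher and 4 lower (21.6% and 22.0%). The median log2 fold changes were 0.82 and 0.63. Leaving out 1 library at a time gave 15 to 19 higher against siNT and 13 to 16 against Mock. With a fold over 2, 12 were called against siNT and 6 against Mock, where 7.31% and 5.09% of all genes were.

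**Figure D1:**
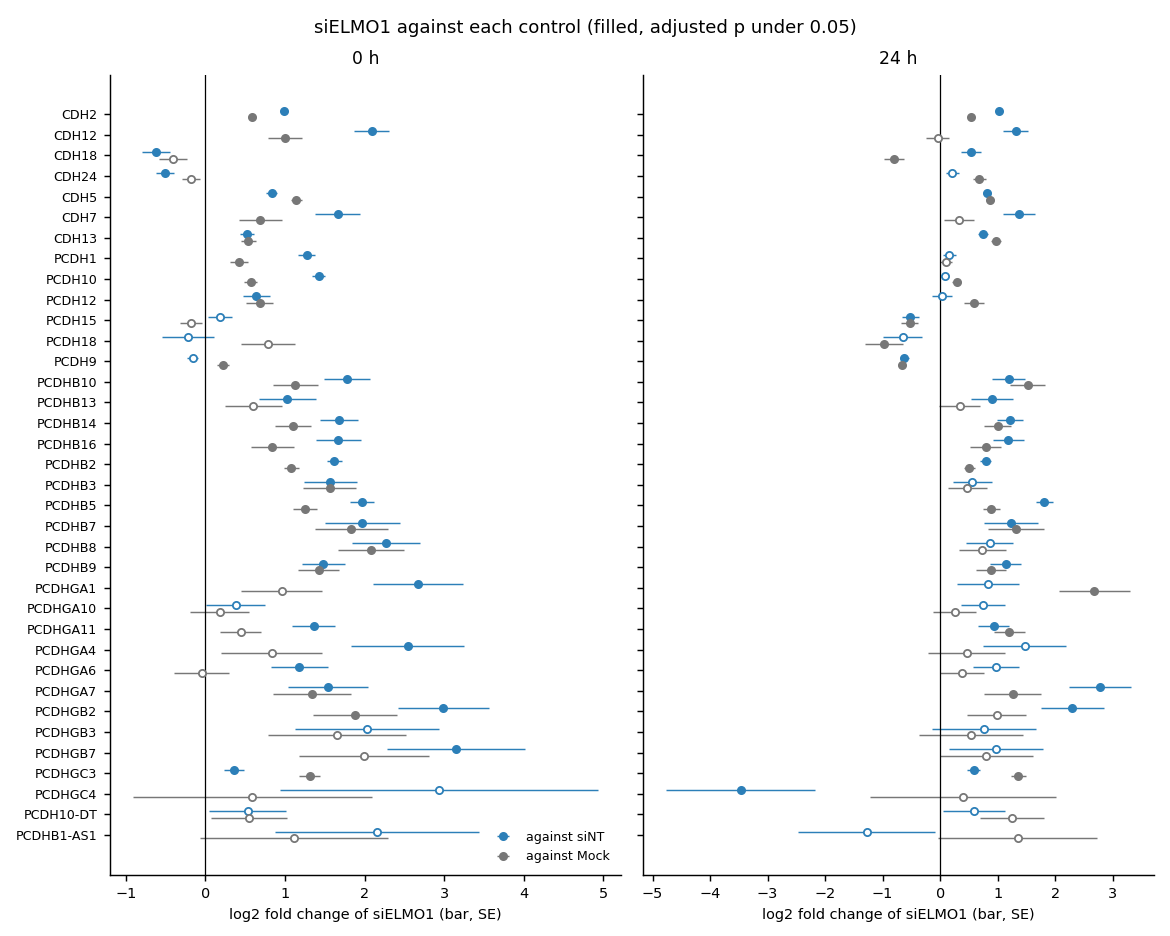
Log2 fold change of siELMO1 against siNT (blue) and against Mock (grey) for the 36 tested genes at 0 h and at 24 h of poly(I:C), with the SE of the fit as bars and filled points for an adjusted p under 0.05; 3 libraries per condition. At 0 h all 10 PCDHB genes lie to the right of 0 against both controls, from 0.60 to 2.27.

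CDH5, the cadherin of endothelial adherens junctions (GRCh38 chr16:66366690-66404784), had the most counts of all members and rose with ELMO1 knockdown at both times. At 0 h its CPM was 353, 340 and 367 in Mock, 445, 419 and 451 in siNT, and 758, 771 and 801 in siELMO1. After poly(I:C) it was 536, 441 and 541 in Mock, 497, 516 and 549 in siNT, and 867, 901 and 980 in siELMO1. The siELMO1 libraries lay above every control library at their time. The fold change against siNT was 1.77 at 0 h (log2 0.83 ± 0.07 SE, adjusted p = 9.9e-09) and 1.76 at 24 h (0.82 ± 0.07, adjusted p = 3.4e-08). Against Mock it was 2.2-fold at 0 h (1.14 ± 0.07, adjusted p = 2.8e-10) and 1.81-fold at 24 h (0.86 ± 0.07, adjusted p = 2.7e-08). The gene has no annotated gene on the other strand, and 88.9% to 92% of its counts lay on the transcript ENST00000341529.8 in the condition means.

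CDH2, N-cadherin, followed with tighter replicates. Its CPM at 0 h was 211, 213 and 208 in Mock, 160, 156 and 160 in siNT, and 295, 325 and 328 in siELMO1. With poly(I:C) it was 257, 240 and 245, then 176, 180 and 170, then 375, 359 and 336. The 3 transfections did not overlap at either time, with siNT lowest and siELMO1 highest. siELMO1 was 1.99-fold above siNT and 1.5-fold above Mock at 0 h (log2 0.99 ± 0.05 and 0.58 ± 0.05, adjusted p = 1.1e-11 and 2.3e-08), and 2.04-fold and 1.44-fold above them at 24 h (adjusted p = 5.4e-11 and 1.5e-07). siNT itself was below Mock by 0.41 ± 0.05 on the log2 scale at 0 h (-0.41, adjusted p = 2.1e-06), so the size of the rise depended on the control.

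CDH13, T-cadherin, which has no cytoplasmic tail and is held by a lipid anchor, was higher in siELMO1 in the same way. At 0 h it was at 20.6, 19 and 19.9 CPM in Mock, 21, 18.8 and 20.4 in siNT and 26.6, 31.1 and 28.8 in siELMO1, and at 24 h at 15.9, 12.4 and 15.3, at 17.6, 17.8 and 15.7, and at 29.9, 29.3 and 26.3 CPM. Every siELMO1 library was above every control library of its time. The log2 fold change was 0.52 ± 0.09 against siNT and 0.54 ± 0.09 against Mock at 0 h (adjusted p = 5.4e-05 and 6.2e-05), and 0.74 ± 0.09 and 0.97 ± 0.09 at 24 h (adjusted p = 2.1e-06 and 1.3e-07). Other genes lie on the opposite strand within CDH13.

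The low type II cadherins, studied mainly in the nervous system, did not share one pattern. CDH12 at 0 h was at 4.28, 4.73 and 5.03 CPM in Mock, 1.75, 2.1 and 2.75 in siNT and 8.93, 8.87 and 10.4 in siELMO1, a 4.26-fold rise over siNT and 2.01-fold over Mock (log2 2.09 ± 0.22 and 1.00 ± 0.21, adjusted p = 2.5e-07 and 0.00071). By 24 h it was at 16, 12.8 and 18.3 in Mock, 5.35, 4.24 and 8.81 in siNT and 13.5, 15.2 and 17.1 in siELMO1, so that siELMO1 was above siNT (log2 1.31 ± 0.21, adjusted p = 5.2e-05) and overlapped Mock (-0.04 ± 0.20, adjusted p = 0.89). CDH7 was at 1.16, 1.04 and 0.934 CPM in Mock, 0.478, 0.543 and 0.569 in siNT and 1.35, 1.78 and 1.94 in siELMO1 at 0 h, and at 1.33, 1.38 and 1.99, at 0.669, 0.84 and 0.77, and at 1.49, 1.6 and 2.84 at 24 h. It rose over siNT at both times (log2 1.66 ± 0.28 and 1.37 ± 0.27, adjusted p = 5e-05 and 0.00043). Over Mock at 0 h (0.69 ± 0.27, adjusted p = 0.04) its call was lost without any one of the 3 Mock libraries or siELMO1 replicates 2 and 3 (adjusted p, 0.064 to 0.14).

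CDH18 and CDH24 were the 2 members called lower in siELMO1 than in siNT at 0 h. Neither was called against Mock at 0 h: CDH18 was at -0.41 on the log2 scale (adjusted p = 0.063) and CDH24 overlapped Mock. CDH18 was at 8.44, 6.86 and 7.65 CPM in Mock, 8.88, 9.06 and 8.58 in siNT and 5.49, 4.87 and 6.83 in siELMO1 (log2 fold change against siNT -0.62 ± 0.18, adjusted p = 0.0056). At 24 h it was at 18.7, 20.3 and 24.6 in Mock, 6.98, 6.86 and 11.3 in siNT and 11, 11.1 and 14.6 in siELMO1, which overlapped siNT and lay below Mock: 0.54 ± 0.17 above siNT on the log2 scale (adjusted p = 0.015, but 0.077, 0.08 and 0.086 without siNT replicate 1, siNT replicate 2 or siELMO1 replicate 3) and -0.80 ± 0.17 against Mock (adjusted p = 0.0011). CDH24 was at 10.8, 11.9 and 13.9 CPM in Mock, 13.8, 14.5 and 17.5 in siNT and 11.6, 9.8 and 10.8 in siELMO1 at 0 h (against siNT -0.51 ± 0.11, adjusted p = 0.00062), and at 7.41, 6.71 and 6.23, at 9.4, 10 and 8.74, and at 11.7, 10.2 and 10.7 at 24 h. After poly(I:C) it was above Mock (0.68 ± 0.11, adjusted p = 0.0001) and its difference from siNT missed the threshold (0.21 ± 0.11, adjusted p = 0.13).

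**Figure D2:**
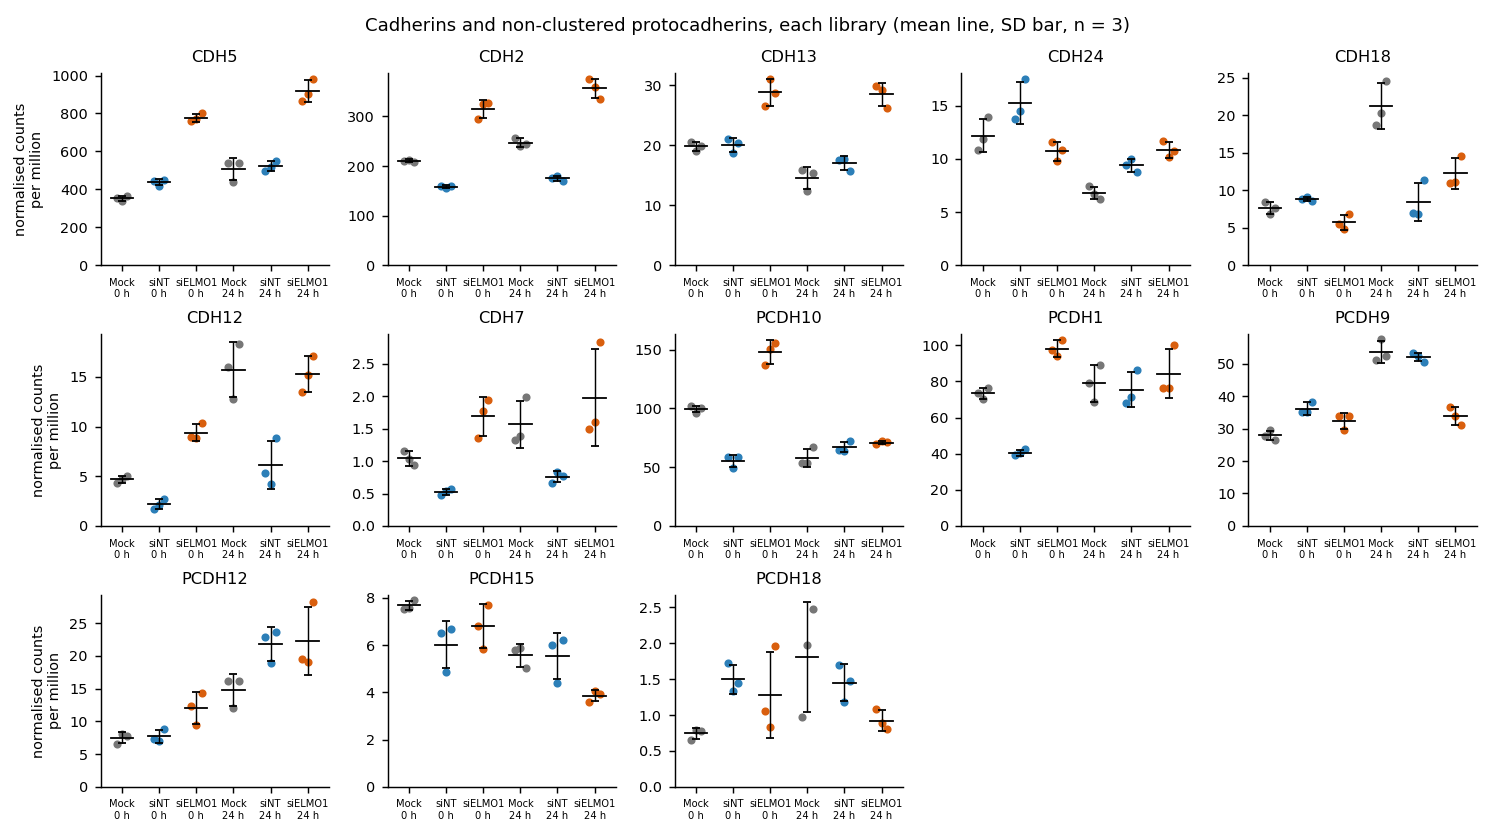
CPM of the 13 tested cadherins and non-clustered protocadherins in every library; points are libraries in Mock (grey), siNT (blue) and siELMO1 (orange), lines are means and bars SD (n = 3), and each axis starts at 0. The siELMO1 libraries of CDH5 (758 to 980) lie above all control libraries (340 to 549).

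Among the non-clustered protocadherins, PCDH10 and PCDH1 were raised at 0 h and not called against siNT after poly(I:C). PCDH10, a δ2-protocadherin that binds actin regulators of the WAVE complex, was at 102, 96.5 and 100 CPM in Mock, 58.6, 49.2 and 58.5 in siNT and 137, 151 and 156 in siELMO1 at 0 h. The 3 transfections did not overlap; siELMO1 was 2.68-fold above siNT and 1.49-fold above Mock (log2 1.42 ± 0.08 and 0.57 ± 0.08, adjusted p = 1.1e-10 and 1.6e-05). At 24 h the values were 53.4, 53.5 and 66.9, then 64.8, 64.1 and 72.1, then 69.4, 72 and 71.3, and siELMO1 differed from siNT by 0.08 ± 0.08 (adjusted p = 0.44). Its difference from Mock at 24 h, 0.29 ± 0.08 (adjusted p = 0.0093), rose to an adjusted p of 0.054 without Mock replicate 1 and likewise without Mock replicate 2.

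PCDH1, a δ1-protocadherin of epithelia and endothelia, was at 73.6, 70.4 and 76.2 CPM in Mock, 39.2, 40.2 and 42.5 in siNT and 97.3, 93.9 and 103 in siELMO1 at 0 h. It was 2.41-fold above siNT and 1.34-fold above Mock (log2 1.27 ± 0.11 and 0.42 ± 0.11, adjusted p = 1.4e-08 and 0.0033). At 24 h the groups overlapped: 79, 68.7 and 88.9 in Mock, 68.1, 71.6 and 86.5 in siNT, and 76.4, 76.5 and 100 in siELMO1 (adjusted p = 0.22 against siNT and 0.49 against Mock). Its transcripts also differed in share. The 5-exon transcript ENST00000287008.8 held 7.65%, 12.4% and 10.7% of PCDH1 counts in Mock at 0 h, 15.5%, 6.46% and 11.9% in siNT, and 21%, 31.8% and 30.3% in siELMO1, without overlap. At 24 h it held 17.5% to 21.5% in Mock, 6.79% to 14.4% in siNT and 21.5% to 25.2% in siELMO1. The remainder lay almost wholly on the 3-exon transcript ENST00000394536.4. These shares are StringTie estimates over shared exons and were not tested.

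PCDH12, or VE-cadherin-2, a protocadherin of endothelial contacts, was at 6.59, 8.1 and 7.8 CPM in Mock, 7.34, 6.97 and 8.88 in siNT and 12.3, 9.42 and 14.3 in siELMO1 at 0 h. It was higher in siELMO1 by 0.64 ± 0.17 against siNT and 0.68 ± 0.17 against Mock on the log2 scale (adjusted p = 0.0039 and 0.0032). With poly(I:C) it was at 16.2, 12 and 16.2, at 22.9, 18.9 and 23.7, and at 19.5, 19.1 and 28.2 CPM, with no difference detected from siNT (0.03 ± 0.17, adjusted p = 0.91) and 0.59 ± 0.17 above Mock (adjusted p = 0.0092, or 0.057 without Mock replicate 2 and 0.074 without siELMO1 replicate 3). It overlaps RNF14 on the other strand.

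PCDH9 and PCDH15 were lower in siELMO1, at 24 h. PCDH9, a δ1-protocadherin, was at 27.7, 29.4 and 26.6 CPM in Mock, 35, 35.1 and 38.3 in siNT and 33.8, 29.6 and 33.8 in siELMO1 at 0 h, and at 51, 57.5 and 52.2, at 53.1, 52.4 and 50.5, and at 36.6, 33.9 and 31.2 at 24 h. The 24 h siELMO1 libraries were below all controls of that time by a fold of 1.53 against siNT and 1.58 against Mock (log2 -0.62 ± 0.07 and -0.66 ± 0.07, adjusted p = 1.1e-06 and 6.8e-07). At 0 h siELMO1 was 0.22 ± 0.07 above Mock (adjusted p = 0.016, lost at 0.055 to 0.13 without Mock replicate 1 or 3 or siELMO1 replicate 1 or 3) and -0.16 ± 0.07 against siNT (adjusted p = 0.063). PCDH15, the tip-link protocadherin of hair cells, was at 7.55, 7.59 and 7.91, at 6.52, 4.87 and 6.68, and at 6.82, 5.85 and 7.71 CPM at 0 h, and at 5.81, 5.87 and 5.02, at 6, 4.4 and 6.2, and at 3.61, 4.04 and 3.94 at 24 h. It did not pass at 0 h (adjusted p = 0.31 and 0.34) and was lower in siELMO1 at 24 h (log2 -0.52 ± 0.15 and -0.53 ± 0.15, adjusted p = 0.0071 and 0.0079). PCDH18 was near 1 CPM: 0.658, 0.798 and 0.78, then 1.72, 1.33 and 1.44, then 1.06, 0.829 and 1.96 at 0 h, and 0.971, 1.97 and 2.48, then 1.7, 1.18 and 1.47, then 1.08, 0.886 and 0.8 at 24 h. Its one siELMO1 call, against Mock at 24 h (-0.97 ± 0.33, adjusted p = 0.026), was lost without Mock replicate 2 (0.07) or 3 (0.15) or siELMO1 replicate 2 (0.069) or 3 (0.079).

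The PCDHB genes moved together. All 10 tested ones were called higher in siELMO1 than in siNT at 0 h, where 31.3% of all genes were. Their log2 fold changes ran from 1.03 (PCDHB13) to 2.27 (PCDHB8), with a median of 1.68. Against Mock 9 were called higher, beside 27.9% of all genes, with a median of 1.19. PCDHB13 was the exception (0.60). The call of PCDHB13 against siNT at 0 h (adjusted p = 0.02) was lost without siELMO1 replicate 1 (0.59 on the log2 scale, adjusted p = 0.18) or siNT replicate 2 (adjusted p = 0.085). At 24 h 8 were called higher against siNT and 7 against Mock, and none lower, beside 26.0% and 21.6% of all genes called higher. Some of these calls hung on single libraries. Against siNT, PCDHB7 and PCDHB13 lost theirs without siNT replicate 1 or 2 (adjusted p, 0.071 to 0.19), among others. Against Mock, PCDHB7, PCDHB9 and PCDHB16 lost theirs without Mock replicate 2 (adjusted p = 0.14, 0.058 and 0.11), among others. Because PCDHB3, PCDHB7, PCDHB8 and PCDHB9 passed the filter only through siELMO1 libraries, the counts were also summed over all 16 genes of the cluster, tested or not. The sum was 27.5, 28.2 and 30.2 CPM in Mock, 20.5, 18.8 and 19.7 in siNT and 58.6, 65.5 and 62.2 in siELMO1 at 0 h. The siELMO1 mean was 3.16 times that of siNT and 2.17 times that of Mock. At 24 h the sum was 25.9, 23.8 and 29.2, then 19.2, 20 and 24, then 37.6, 43.5 and 43.1 CPM. The 6 PCDHB genes that did not pass the filter summed to 0.663 to 0.948 CPM in Mock, 0.543 to 0.717 in siNT and 1.28 to 1.43 in siELMO1 at 0 h. At 24 h they summed to 0.629 to 0.994 CPM in Mock, 0.401 to 0.665 in siNT and 0.84 to 1.13 in siELMO1, which overlapped Mock.

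PCDHB2 carried most of the cluster's counts. It was at 17, 17.5 and 17.6 CPM in Mock, 12.1, 11.8 and 11.8 in siNT and 34.6, 38.2 and 37.2 in siELMO1 at 0 h, and at 15.1, 15 and 18.3, at 12.1, 13 and 14.7, and at 20.7, 24.5 and 23.6 at 24 h. No siELMO1 library overlapped a control. The rise was 3.08-fold over siNT and 2.11-fold over Mock at 0 h (log2 1.62 ± 0.09 and 1.08 ± 0.09, adjusted p = 2.7e-11 and 9.7e-09), and 1.73-fold and 1.42-fold at 24 h (adjusted p = 7.6e-07 and 0.00012). The antisense transcript PCDHB1-AS1, which overlaps PCDHB2, was at 0 to 1.02 CPM and was called in no comparison.

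PCDHB5 was at 2.87, 3.18 and 3.94 CPM in Mock, 2, 2.15 and 1.9 in siNT and 7.25, 8.04 and 8.45 in siELMO1 at 0 h, and at 2.9, 2.52 and 2.6, at 1.4, 1.18 and 1.65, and at 5.26, 4.87 and 4.72 at 24 h. Its rise was 3.91-fold over siNT at 0 h and 3.51-fold at 24 h (log2 1.97 ± 0.15 and 1.81 ± 0.15, adjusted p = 2.8e-09 and 3.2e-08), and 2.37-fold and 1.85-fold over Mock. PCDHB14 was at 1.73, 1.61 and 2.57, at 1.69, 1.13 and 1.12, and at 3.69, 4.62 and 4.35 CPM at 0 h, and at 1.96, 1.79 and 2.35, at 1.53, 1.75 and 2, and at 3.02, 4.18 and 5 at 24 h (log2 fold change over siNT 1.68 ± 0.24 and 1.21 ± 0.23, adjusted p = 6.8e-06 and 0.00031). For each of these genes the siELMO1 libraries were above all control libraries at both times. The means of the other 7 tested genes at 0 h ran from 0.205 CPM (PCDHB8 in siNT) to 2.75 CPM (PCDHB16 in siELMO1). Most PCDHB genes have an unnamed gene on the opposite strand, and whether counting used strand was not given in the sources used here.

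**Figure D3:**
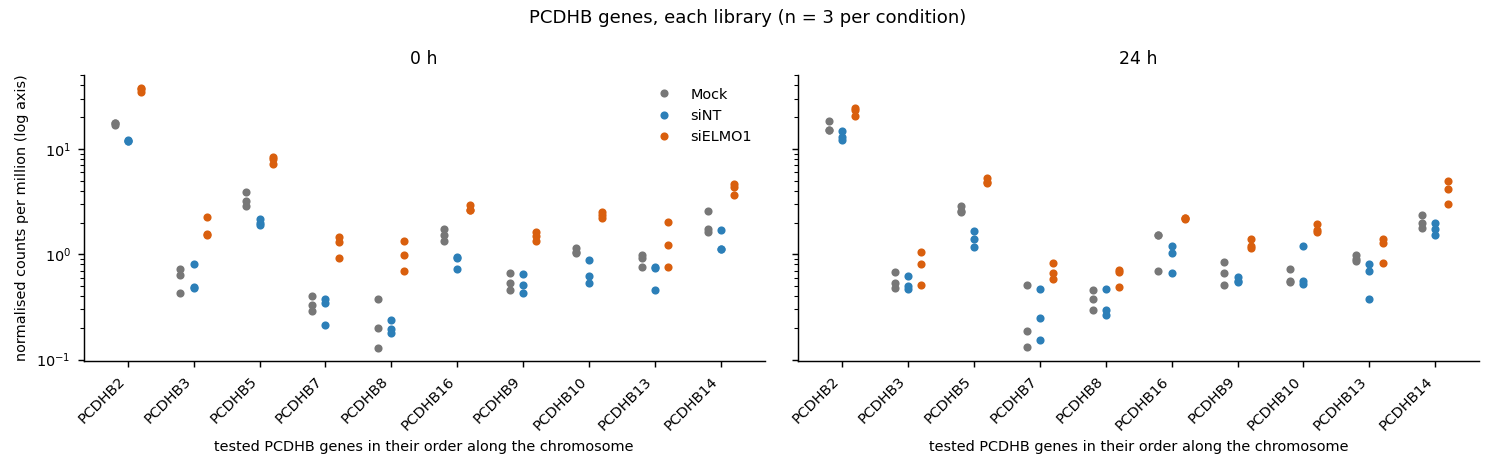
CPM, on a log axis, of the 10 tested PCDHB genes in every library of Mock (grey), siNT (blue) and siELMO1 (orange) at 0 h and at 24 h of poly(I:C), in chromosomal order. PCDHB2 is the highest throughout (11.8 to 38.2), and its siELMO1 libraries (34.6 to 38.2 at 0 h) are above both controls.

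The PCDHG genes were mostly higher in siELMO1 than in siNT at 0 h, but their separate levels are less certain. All 22 hold the same 3 exons, of 59, 89 and 2029 bases, in annotated transcripts, so reads from those exons were divided among the genes by estimation. At 0 h 8 of 11 tested genes (72.7%) were called higher against siNT, beside 31.3% of all genes. Against Mock 3 were (27.3%, near the 27.9% of all genes), with none lower against either. At 24 h 4 were higher (36.4%) and 1 lower against siNT, beside 26.0% and 26.5% of all genes. Against Mock 4 were higher (36.4%), beside 21.6% of all genes. The call of PCDHGA7 against Mock at 24 h (adjusted p = 0.046) was lost without Mock replicate 1 (0.13), Mock replicate 3 (0.16) or siELMO1 replicate 1 (0.51). PCDHGA1, PCDHGA4 and PCDHGB3 passed the filter only through siELMO1 libraries. Summed over the cluster without PCDHGC3, the 21 genes came to 19.4, 20.4 and 15.6 CPM in Mock, 9.39, 8.45 and 11.6 in siNT and 36.6, 33 and 32.2 in siELMO1 at 0 h, and to 9.98, 11.4 and 15, to 7.61, 13.5 and 10.4, and to 27, 23.2 and 22.2 at 24 h. Over the transcripts that lack the shared exons, these 21 genes averaged 8.52 ± 0.197 CPM in Mock, 5.46 ± 0.683 in siNT and 13.4 ± 2.8 in siELMO1 at 0 h (SD, n = 3), and 5.13 ± 1.1, 5.27 ± 1.13 and 5.77 ± 1.03 at 24 h. Over those with the shared exons they averaged 9.91 ± 2.36, 4.36 ± 2.21 and 20.6 ± 4.54 at 0 h and 7.01 ± 3.47, 5.25 ± 3.99 and 18.4 ± 1.52 at 24 h. At 24 h siELMO1 was thus above both controls on the transcripts with the shared exons and overlapped them on those without.

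PCDHGC3, one of the C-type genes at the end of the cluster, was the most abundant and differed from the rest in its controls. It was at 20.5, 18 and 24.2 CPM in Mock, 40.2, 40.8 and 39.7 in siNT and 44.3, 53.1 and 57.8 in siELMO1 at 0 h, and at 36.1, 24.6 and 31.2, at 50.5, 50.9 and 56.3, and at 70.4, 83.8 and 82.4 at 24 h. The 3 transfections did not overlap at either time. siNT was 1.92-fold above Mock at 0 h (log2 0.94 ± 0.13, adjusted p = 7.8e-06). siELMO1 was 2.47-fold above Mock (1.31 ± 0.13, adjusted p = 1.6e-07) and 1.28-fold above siNT (0.36 ± 0.13, adjusted p = 0.018, or 0.096 without siELMO1 replicate 3). By 24 h it was 2.58-fold above Mock and 1.5-fold above siNT (adjusted p = 1.5e-07 and 0.00076). The 4-exon transcript ENST00000308177.5 held 87.7% to 95.1% of its counts in the condition means.

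PCDHGA11 was at 8.38, 11.4 and 7.87 CPM in Mock, 5.51, 3.57 and 5.49 in siNT and 14.5, 8.99 and 13.7 in siELMO1 at 0 h, and at 1.9, 3.84 and 4.54, at 3.21, 4.75 and 4.46, and at 7.89, 9.09 and 6.72 at 24 h. It was above siNT at both times (log2 1.36 ± 0.27 and 0.93 ± 0.27, adjusted p = 0.00025 and 0.0074) and above Mock at 24 h (1.20 ± 0.27, adjusted p = 0.0015), while at 0 h it overlapped Mock (0.44 ± 0.26, adjusted p = 0.18). PCDHGB2 was at 1.16, 3 and 0.857, at 0.239, 0.51 and 1.57, and at 5.7, 8.31 and 4.57 CPM at 0 h, and at 3.75, 2.55 and 4.54, at 0.784, 2.31 and 1.24, and at 7.87, 4.96 and 8.64 at 24 h. Against siNT its log2 fold change was 2.99 ± 0.57 at 0 h (adjusted p = 0.00019) and 2.30 ± 0.55 at 24 h (adjusted p = 0.0018); without siNT 0 h replicate 3 the first became 4.05, and its 1.88 ± 0.53 over Mock at 0 h (adjusted p = 0.0069) became 2.58 without Mock replicate 2. The PCDHG gene called lower was PCDHGC4, at 24 h against siNT. It is named here for that call, after its values were seen. Its 3 siNT libraries held 0.0382, 0.179 and 2.12 CPM, and the adjusted p of 0.032 became 0.73 without siNT replicate 3, 0.1 without siELMO1 replicate 1 and 0.094 without siELMO1 replicate 2.

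The 16 PCDHA genes together stayed at or below 1.72 CPM. Their sum was 0.489, 0.365 and 0.716 CPM in Mock, 0.209, 0.197 and 0.225 in siNT and 0.749, 0.98 and 1.72 in siELMO1 at 0 h. At 24 h it was 0.0571, 0.348 and 0.428, then 0.382, 0.34 and 0.193, then 0.455, 0.575 and 0.999 CPM. The siELMO1 libraries were above every control library at both times, by little next to their own spread. Over both times a library held 3 to 86 PCDHA counts. In a fit with no filter on abundance, none of the 13 PCDHA genes with any count was called in any of the 11 comparisons.

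**Figure D4:**
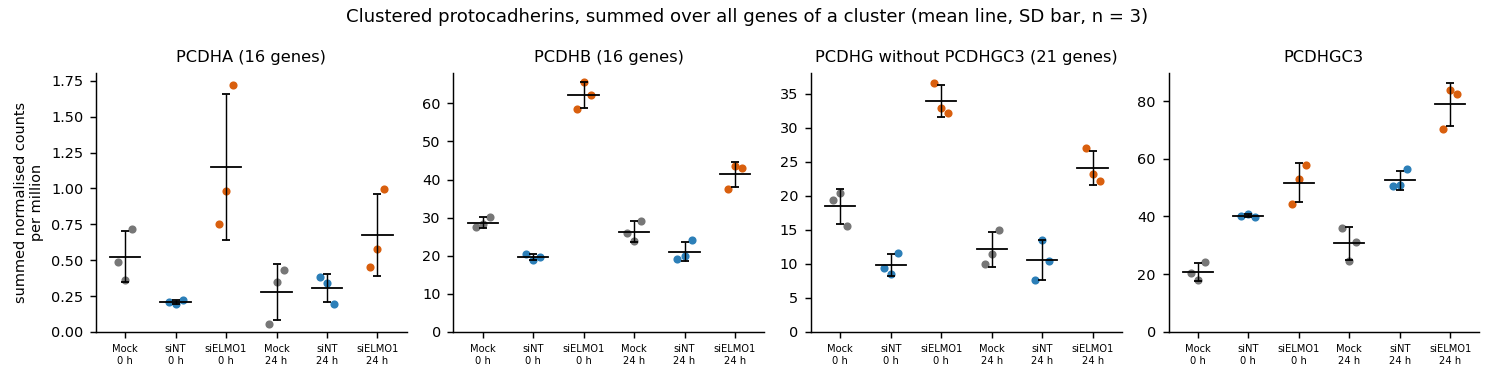
Summed CPM of all genes of the PCDHA, PCDHB and PCDHG clusters, the last without PCDHGC3, and of PCDHGC3 alone; points are libraries, lines means and bars SD (n = 3), and every axis starts at 0. PCDHB and PCDHG sums are lowest in siNT and highest in siELMO1 at 0 h, whereas PCDHGC3 is lowest in Mock.

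siNT was compared with Mock to describe how the control siRNA differed from the transfection reagent alone. With no other non-targeting condition in the data, effects of any siRNA could not be told from those of this control. The paper reports extensive death of siNT cells after poly(I:C), with much less in Mock cells and suppression of this death in siELMO1 cells. The 24 h comparisons of siNT with siELMO1 and with Mock thus set groups that differed in reported cell death. Any part of cell death in the levels after poly(I:C), or in the differences between responses, was not tested. At 0 h 5 members were called higher and 12 lower in siNT, against 27.6% and 24.0% of all genes, with a median log2 fold change of -0.42 and 4 calls past a fold of 2 (6.51% of all genes). Those lower included CDH2, CDH7, CDH12, PCDH1 and PCDH10 (-0.85 ± 0.08, adjusted p = 1.9e-07) and PCDHB2 (-0.54 ± 0.09, adjusted p = 4.5e-05). Those higher were CDH5 (0.31 ± 0.07, adjusted p = 0.00099), PCDH9 (0.37 ± 0.07, adjusted p = 0.00024), PCDHGC3, CDH24 and PCDH18; the last 2 lost the call without 1 library, CDH24 without Mock replicate 1 (adjusted p = 0.16), Mock replicate 2 (0.092) or siNT replicate 3 (0.13) and PCDH18 without Mock replicate 1 (0.073) or siNT replicate 1 (0.064). At 24 h 7 were higher and 7 lower (25.2% and 24.9% of all genes), with 6 past a fold of 2 (6.72%). Among these CDH18 was 2.53-fold and CDH12 2.56-fold lower in siNT than in Mock (log2 -1.34 ± 0.18 and -1.36 ± 0.21, adjusted p = 6.4e-06 and 4e-05), and CDH2 and PCDHB5 were lower again (-0.50 ± 0.05 and -0.92 ± 0.15). The count of 5 higher at 0 h fell to 3 without Mock 0 h replicate 1, and that of 7 higher at 24 h fell to 4 without Mock replicate 1, Mock replicate 2, siNT replicate 2 or siNT replicate 3, and to 3 when only the 6 libraries compared were fitted. With the replicate number as a block, which these 2 groups support, PCDHGB2 joined them (-1.40, adjusted p = 0.041, from 0.051) and PCDHGC4 lost its call (adjusted p = 0.058, from 0.023, and 0.58 without siNT 24 h replicate 3).

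The second question was the response to poly(I:C), which here cannot be told apart from the additional time in culture. Within Mock 8 members rose and 9 fell, where 30.7% of all genes rose and 29.6% fell, with 7 past a fold of 2 (14.5%). In siNT 9 rose and 6 fell (28.6% and 25.2%), with 6 past a fold of 2 (9.42%), and in siELMO1 6 rose and 8 fell (28.0% and 26.9%), with 5 past a fold of 2 (11.4%). The shares of members that rose or fell, 16.7% to 25%, were below those of all genes in each transfection. CDH5 rose in all 3 transfections, by 0.52 ± 0.07 in Mock, 0.25 ± 0.07 in siNT and 0.24 ± 0.07 in siELMO1 on the log2 scale (adjusted p = 4e-06, 0.0056 and 0.0071). PCDH12 rose by 0.98 ± 0.17, 1.5 ± 0.17 and 0.88 ± 0.17 (adjusted p = 9.7e-05, 1.1e-06 and 0.00027), and CDH12 by 1.74 ± 0.21, 1.48 ± 0.22 and 0.70 ± 0.21 (adjusted p = 1.4e-06, 2.4e-05 and 0.0082). PCDHGC3 rose in each as well (0.55, 0.39 and 0.61), in siNT with an adjusted p of 0.015 that became 0.061 without siNT 24 h replicate 3. The divergent transcript PCDH10-DT fell in each, from 0.777 to 1.65 CPM at 0 h to at most 0.56 CPM at 24 h (log2 -2.31, -1.66 and -1.61, adjusted p = 0.0014, 0.013 and 0.012), with 0 counts in Mock 24 h replicate 1. The first became -2.93 without Mock 24 h replicate 2, and the last stood at an adjusted p of 0.05 without siELMO1 24 h replicate 2. CDH2 rose by 0.23, 0.14 and 0.18 (adjusted p = 0.00058, 0.022 and 0.0057), in siNT with an adjusted p of 0.072, 0.053 and 0.08 without siNT 0 h replicate 2, siNT 24 h replicate 1 or siNT 24 h replicate 2. CDH13 fell in Mock (-0.45 ± 0.09, adjusted p = 0.00032), with -0.24 in siNT (adjusted p = 0.034, or 0.11, 0.083 and 0.14 without siNT 0 h replicate 1, siNT 0 h replicate 3 or siNT 24 h replicate 3) and -0.01 in siELMO1 (adjusted p = 0.9). Its responses were not called as different between transfections (0.22 and 0.21, adjusted p = 0.19 and 0.22). CDH7 was not called in any transfection (0.58, 0.52 and 0.22).

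The responses of other members differed between transfections, which was tested as an interaction. For siELMO1 minus siNT 2 members were called higher and 6 lower, against 16.7% and 17.8% of all genes, with 4 past a fold of 2 (6.20%). For siNT minus Mock 4 were higher and 4 lower, against 15.0% and 16.0%, with 5 past a fold of 2 (4.21%). The 4 lower fell to 2 without any one Mock 0 h library, siNT 0 h replicate 1 or 3, Mock 24 h replicate 3 or siNT 24 h replicate 2. PCDH10 fell in Mock (-0.78 ± 0.08) and in siELMO1 (-1.07 ± 0.08) and rose in siNT (0.27 ± 0.08, adjusted p = 0.011, or 0.071 without siNT 0 h replicate 2 and 0.059 without siNT 24 h replicate 3), and both differences were called (-1.34 ± 0.12 and 1.06 ± 0.12, adjusted p = 1.1e-07 and 3.2e-06). PCDH1 rose in siNT by 0.89 ± 0.11 (adjusted p = 2e-06) and was not called in Mock (0.10 ± 0.11, adjusted p = 0.42) or siELMO1 (-0.22 ± 0.11, adjusted p = 0.095). PCDH9 rose by 0.94 ± 0.07 in Mock and 0.52 ± 0.07 in siNT (adjusted p = 2.4e-09 and 5.6e-06) and moved by 0.06 ± 0.07 in siELMO1 (adjusted p = 0.46). CDH24 fell by 0.85 on the log2 scale in Mock (-0.85 ± 0.11) and by 0.71 in siNT (-0.71 ± 0.11), with 0.01 ± 0.11 in siELMO1 (adjusted p = 0.93). CDH18 rose 2.77-fold in Mock and 2.13-fold in siELMO1 (adjusted p = 1.1e-06 and 5.3e-05), with -0.08 ± 0.18 in siNT (adjusted p = 0.74). PCDH15 fell in Mock (-0.47 ± 0.15, adjusted p = 0.01) and in siELMO1 (-0.82 ± 0.15, adjusted p = 0.00015), with -0.12 in siNT (adjusted p = 0.5). PCDH18 rose in Mock (1.28 ± 0.34, adjusted p = 0.0032), with -0.05 in siNT and -0.48 in siELMO1. PCDHB2 fell in siELMO1 (-0.68 ± 0.08, adjusted p = 2.6e-06) and was not called in Mock (-0.11) or siNT (0.15), and its response in siELMO1 differed from that in siNT by -0.83 ± 0.12 (adjusted p = 4.2e-05).

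**Figure D5:**
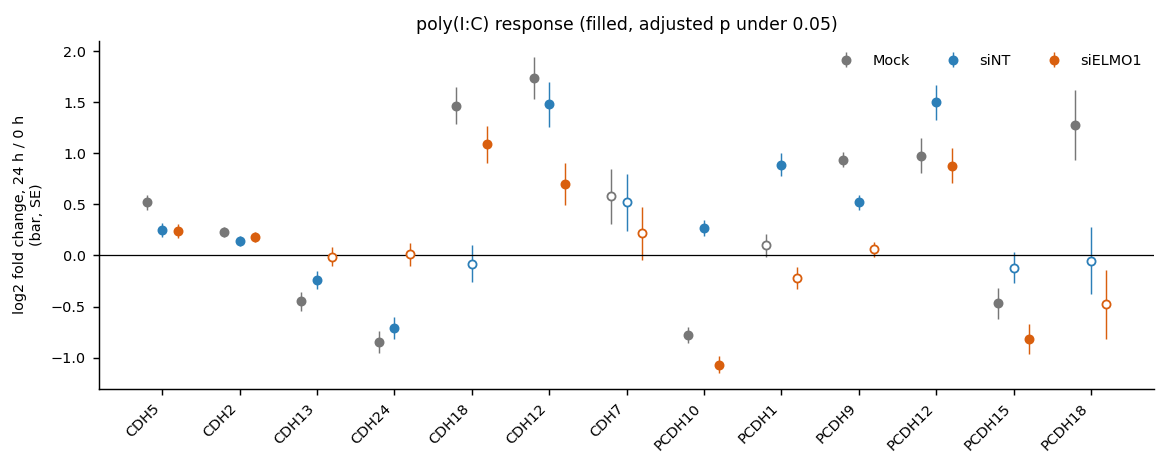
Log2 fold change from 0 h to 24 h of poly(I:C) in Mock (grey), siNT (blue) and siELMO1 (orange) for the 13 tested cadherins and non-clustered protocadherins, with the SE of the fit as bars and filled points for an adjusted p under 0.05; 3 libraries per condition. PCDH12 and CDH12 rose in all 3, while PCDH10 fell in Mock and siELMO1 (-0.78 and -1.07) and rose in siNT (0.27).

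The proteins that work with cadherins were taken from lists. Of 12 catenins and plakophilins 8 were tested. In siELMO1 against siNT at 0 h 1 was called higher and 3 lower, beside 31.3% of all genes each way. CTNNB1, β-catenin, was lower in siELMO1 in all 4 comparisons, by 0.71 against siNT (log2 -0.71, adjusted p = 5.4e-10) and by 0.28 against Mock (-0.28, adjusted p = 9.1e-05) at 0 h. CTNND1, p120-catenin, was at -0.22 and 0.04 (adjusted p = 0.002 and 0.59). PKP3 (-0.94) and PKP2 (0.43) were the ends of that list. JUP, plakoglobin, named after its values were seen, was at 0.20 against siNT at 0 h (adjusted p = 0.51) and was higher against Mock at 0 h (1.49, adjusted p = 9.9e-05) and against siNT and Mock at 24 h (1.53 and 2.08, adjusted p = 0.00011 and 6.7e-06). The 7 desmosomal cadherins summed to at most 0.0765 CPM in any library. Among 17 further members of the superfamily 8 were tested. Against siNT at 0 h 4 were higher and none lower, beside 31.3% of all genes each way. FAT4, a giant cadherin, was at the upper end (0.97, adjusted p = 1.3e-08) and CDHR3 at the lower (-0.59, adjusted p = 0.11).

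Of 14 other junction genes 12 were tested, with 7 called higher and 1 lower against siNT at 0 h, beside 31.3% of all genes each way. F11R, the junctional adhesion molecule A, was the highest (1.15, adjusted p = 1.5e-05) and PECAM1 was not called (-0.48, adjusted p = 0.069). Of 8 transcription regulators of cadherin genes 5 were tested, 3 higher and 1 lower against siNT at 0 h, beside the same shares of all genes. ERG, an endothelial factor that acts on CDH5, was 2.18 higher on the log2 scale against siNT and 0.62 higher against Mock at 0 h (adjusted p = 2.1e-11 and 0.00014); SNAI1 (0.67 and 1.02, adjusted p = 2.5e-06 and 2.5e-08) and ZEB2 (0.78 and 0.43, adjusted p = 1.9e-07 and 0.00027), repressors of CDH1 named after their values were seen, were higher against both; ZEB1, another repressor of CDH1, did not pass (0.20 and -0.20), TWIST2 was the lowest (-0.59, adjusted p = 0.031) and SNAI2 never passed 0.288 CPM. All 12 regulators of clustered protocadherin promoters were tested, 3 higher and 7 lower against siNT at 0 h, where 31.3% of all genes were called each way. CTCF was not called at 0 h against siNT (0.11, adjusted p = 0.19) or Mock (0.01, adjusted p = 0.89). At 24 h it was lower than in siNT (-0.3, adjusted p = 0.0013), with -0.17 against Mock (adjusted p = 0.06). RAD21, the cohesin subunit, was lower against both controls at 0 h (-0.90 and -1.01, adjusted p = 2.9e-12 and 1.1e-12), and SMCHD1, a repressor of the clusters, was lower too at 0 h (-0.44 and -0.25, adjusted p = 7.9e-05 and 0.011) and higher than siNT at 24 h (0.21, adjusted p = 0.034). The ends of that list were DNMT3A (0.89, adjusted p = 1.3e-08) and DNMT3B (-1.46, adjusted p = 1.8e-08). Any part of these genes in the levels of the clusters was not tested.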

How the data were processed

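RNA of the 18 libraries was prepared with a stranded mRNA kit and sequenced in pairs. Per the labels and the study's methods, the authors aligned reads to GRCh38 with STAR and quantified them with StringTie against GENCODE v44. The authors deposited the result as estimated counts per gene and per transcript, not normalised. The read length set in that conversion and the strand used for counting were not given in the sources used here. Values were rounded to whole numbers. Genes with at least 100 counts in all and 1 CPM in some library were kept (15167 of 62754). edgeR was fitted over the 6 conditions with TMM factors and quasi-likelihood tests (R 4.3.3, edgeR 4.0.16; alternatives with limma 3.58.1 and DESeq2 1.42.0), Benjamini-Hochberg over all tested genes, called at an adjusted p under 0.05. SE is the log2 fold change divided by the square root of F. CPM uses the TMM-scaled totals; TPM was computed from transcript counts and GENCODE v44 lengths. p-values measure the spread between these libraries, which may be partly technical. Library totals were 40.4e6 to 73.9e6 counts. Limits cover counting error only.

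Named were all tested CDH and non-clustered PCDH genes and the 3 most abundant of each cluster; others were named as ends of ranges, for a lost call or where they were called in an interaction. Members and gene lists were chosen with earlier results of these data known. The fit was tested on simulated counts. The promoter words were found in these genes and chosen after the members were known. All 3 correlations of same-numbered libraries were over 0.1 (across 9644 genes) only for Mock and siNT at 24 h, with 0.203, 0.27 and 0.342. At 24 h replicates 2 and 3 of siELMO1 also deviated with those of Mock (0.198 and 0.376) and of siNT (0.22 and 0.418). Replicate 1 did not (0.0172 and 0.0408). A partial pairing at 24 h is thus possible, and the main fit held no block for it. Alternatives tried were DESeq2, limma-voom, no TMM, 2 other filters, a replicate block, fewer libraries in the fit, each library left out and a fold over 2. The lower end of the list of other junction genes is not reported here.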

Additional observations from a re-analysis of the deposited data

Results flagged for a closer look

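Each value here is a difference between 2 poly(I:C) responses, tested as an interaction in edgeR (log2 scale, all at an adjusted p under 0.05 over 15167 genes). Between siELMO1 and siNT the responses differed for PCDH10 (-1.34 ± 0.12), PCDH1 (-1.11 ± 0.15), PCDHB2 (-0.83 ± 0.12), PCDH15 (-0.69 ± 0.21), PCDH9 (-0.46 ± 0.10), CDH18 (1.17 ± 0.25) and CDH24 (0.72 ± 0.16). PCDHGC4 (-6.41 ± 2.35, adjusted p = 0.043) was named after its values were seen; its siNT libraries at 24 h ranged from 0.0382 to 2.12 CPM, and its call was lost without any one of 8 libraries, with -3.6 and an adjusted p of 0.24 without siNT 24 h replicate 3 and 0.052 to 0.29 without any siNT 0 h library, siELMO1 0 h replicates 2 and 3 or siELMO1 24 h replicates 1 and 2.

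Between siNT and Mock the responses differed for CDH18 (-1.55 ± 0.25), PCDH10 (1.06 ± 0.12), PCDH1 (0.79 ± 0.15), PCDH9 (-0.42 ± 0.10) and PCDHGA1 (3.56 ± 0.85, named after its values were seen, 0.019 to 1.24 CPM, and 5.25 without Mock 24 h replicate 2). PCDHGA11 differed by 1.19 ± 0.38 (adjusted p = 0.024), and 0.061 to 0.065 without Mock 0 h, siNT 0 h or siNT 24 h replicate 2. CDH5 differed by -0.27 ± 0.10 (adjusted p = 0.042) and lost its call without any one of 9 of 12 libraries, all but Mock 24 h replicate 2, siNT 0 h replicate 2 and siNT 24 h replicate 3 (adjusted p, 0.062 to 0.15). PCDH18 differed by -1.32 ± 0.47 (adjusted p = 0.04) and lost its call without any one of 9 of 12, all but Mock 24 h replicate 1, siNT 0 h replicate 2 and siNT 24 h replicate 1 (0.058 to 0.12). The comparisons share the siNT libraries. Groups of 3 libraries are too small for a test of single outlying libraries.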

How the results depend on the processing

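Requiring a fold change over 2 lowered the number of members called to 13 (all higher) for siELMO1 against Mock at 0 h, 12 (11 higher) against siNT and 6 (all higher) against Mock at 24 h, 4 and 6 for siNT against Mock at 0 h and 24 h, 7, 6 and 5 for the poly(I:C) response in Mock, siNT and siELMO1, and 4 and 5 for the response differences siELMO1 minus siNT and siNT minus Mock. Under DESeq2, limma-voom, no TMM factors, other filters, a replicate block or only the libraries compared, no total of calls moved by over 1.5 times. By direction, siNT against Mock at 24 h went from 7 higher to 4 with no filter and 3 with only the libraries compared, and the response difference siNT minus Mock went from 4 lower to 2 without TMM factors or with no filter. In siELMO1 against Mock at 0 h, CDH18 became the 1 member called lower under DESeq2, without TMM factors, with the block and with only the libraries compared. Leaving out 1 library at a time, the response difference siNT minus Mock gave 5 (without Mock 0 h replicate 2) to 8 calls. For 19 members named by rule, in the 4 comparisons of siELMO1 with a control only, of 988 alternative log2 fold changes 947 kept their side of the threshold, 29 lost the call, 12 gained it and none reversed. Over all 36 tested members and 11 comparisons, leaving out 1 library lost 135 calls, gained 50 and turned none. The replicate block used a number that paired all 3 libraries only for Mock and siNT at 24 h. With the block, CDH18 in siELMO1 against Mock at 0 h was called (-0.43, adjusted p = 0.015). PCDHGC4 in siELMO1 against siNT at 24 h was not (-2.92, adjusted p = 0.059). The transcript matrix and the cluster sums were used to describe shares and levels in the report, with no test. Depth limits PCDHA and the low PCDHG genes, and the division of reads over shared exons limits all PCDHG genes.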
